A study of Mus musculus with 8 samples.

Results

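The genes described here are 36 DNA repair and damage checkpoint genes, followed in CD8 T cells of mice with and without the cytokine interleukin-2. They were chosen by name as the rows of the deposited expression table whose Entrez identifier maps to a listed symbol, and all 36 were found among the 11723 genes of the table. By role they are 15 genes of homologous recombination, 9 of the Fanconi anaemia pathway, 6 of damage signalling and checkpoint control, 4 of end joining, 1 of mismatch repair (Msh6) and 1 of single-strand break repair (Xrcc1). All 36 passed the filter on low values, so none is left out of the counts below. The list asks how genes of replication-coupled repair moved against genes of end joining and mismatch repair.

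The study sequenced total RNA of CD8 T cells, the cytotoxic class of T lymphocytes, sorted from peripheral lymph nodes of BALB/c mice at 12 days of age. There were 4 wild-type (WT) libraries and 4 libraries from mice lacking interleukin-2 (IL-2-KO). In WT, replicates 1 to 4 were made from pools of 5, 5, 3 and 2 mice and from 115, 28.7, 1.3 and 1.3 M (1e6) sorted cells. For IL-2-KO the sorted cells numbered 26.7, 42.6, 1.1 and 0.4 M, with no statement on pooling. The series' design text calls the samples biological replicates, counts heterozygous mice among the controls and names spleen as a further source, while the sample labels say WT and lymph node.

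A cell can mend a broken chromosome in several ways. Homologous recombination copies the lost stretch from the sister chromatid and is therefore available mainly during and after DNA replication, and the Fanconi pathway works at replication forks to release crosslinks between the DNA strands. End joining seals broken ends at any stage of the cycle and also completes antigen receptor gene rearrangement in developing lymphocytes, while mismatch repair removes copying errors. The kinases ATM and ATR sense damage and stalled forks and pass the signal to CHK2 and CHK1, which hold the cell cycle.

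Libraries held 11.9 to 18.4 M counts over the listed genes, and 1 CPM (counts scaled to 1e6 per library after TMM adjustment, the unit of all levels here) stood for 11.9 to 18.6 counts. Markers of the labelled cells were high in every library: 10 of 13 T cell and CD8 markers were listed, their summed level was 7559 to 8364 CPM in WT and 6568 to 7603 CPM in IL-2-KO, and Cd8a averaged 1840 and 1660 CPM. Il2 stood at 5.72, 5.65, 6.25 and 5.91 CPM in WT replicates 1 to 4 and at 5.13, 7.32, 8.42 and 4.25 CPM in IL-2-KO replicates 1 to 4. Reads are thus counted at this gene in both groups, so its level does not check the genotype. Cd4, a marker of helper T cells, set 1 library of each group apart, at 38.6 CPM in WT replicate 2 and 45.5 CPM in IL-2-KO replicate 3 against 0.461 to 2.48 CPM in the other 6. Of the marker lists for other cells, 2 of 4 natural killer genes were higher in IL-2-KO, and their summed level was 109 to 157 CPM in WT and 251 to 406 CPM in IL-2-KO. The CD4 and regulatory T cell list summed to 29.4 to 115 CPM and 87.6 to 278 CPM, with 1 of 8 higher. The myeloid and dendritic cell list summed to 94.0 to 199.5 CPM in WT, highest in replicate 2, and to 532.7 CPM in IL-2-KO replicate 3 against 87.6 to 146.5 CPM in the other 3. The same 2 libraries were highest in the plasma cell list (37.3 to 52.0 and 46.0 to 66.2 CPM, 1 of 3 higher). The defining natural killer gene Ncr1 and the B cell gene Ms4a1 are not among the listed genes. The part of these other transcripts in the results below was not tested.

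In IL-2-KO cells 16 of the 36 genes were higher than in WT, 1 was lower (Lig4) and 19 did not pass the test (limma, Benjamini-Hochberg adjusted p under 0.05 over 11530 genes). Of all genes tested, 11.1% were higher and 8.03% lower by the same test. The higher share among the 36 (44.4%) was above that background and the lower share (2.78%) was below it. The 36 were chosen with earlier results of these data known, so these shares describe only the chosen genes. The median log2 difference, IL-2-KO minus WT on the log2(CPM + 0.5) scale used throughout, was 0.25 over the 36 genes and -0.01 over all genes tested. The 16 rises were 10 recombination, 3 Fanconi and 3 checkpoint genes. Of the 24 recombination and Fanconi genes 13 rose, with a median of 0.46, whereas of the 5 end joining and mismatch genes 0 rose and 1 fell, with a median of 0.02. At an unadjusted limma p under 0.05, too, 0 of those 5 were higher. With so few genes in the second set these are descriptions of the listed genes. Further genes of the same pathways, counted below, did not show medians so far apart. These were 0.04 in recombination, -0.03 in the Fanconi pathway, -0.08 in end joining and -0.07 in mismatch repair. The values of the groups did not overlap, with IL-2-KO above, for 15 of the 36 (12.9% of all genes tested), and with IL-2-KO below for 2, Lig4 and Atrip (11.2% of all genes tested). In bulk libraries such as these, fewer cells that express a gene cannot be told apart from less of its RNA per cell. With only the 4 libraries of over 2 M cells, 2 a group, 5 of the 36 genes were higher and 0 lower, and over all genes 310 were higher and 54 lower.

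**Figure D1:**
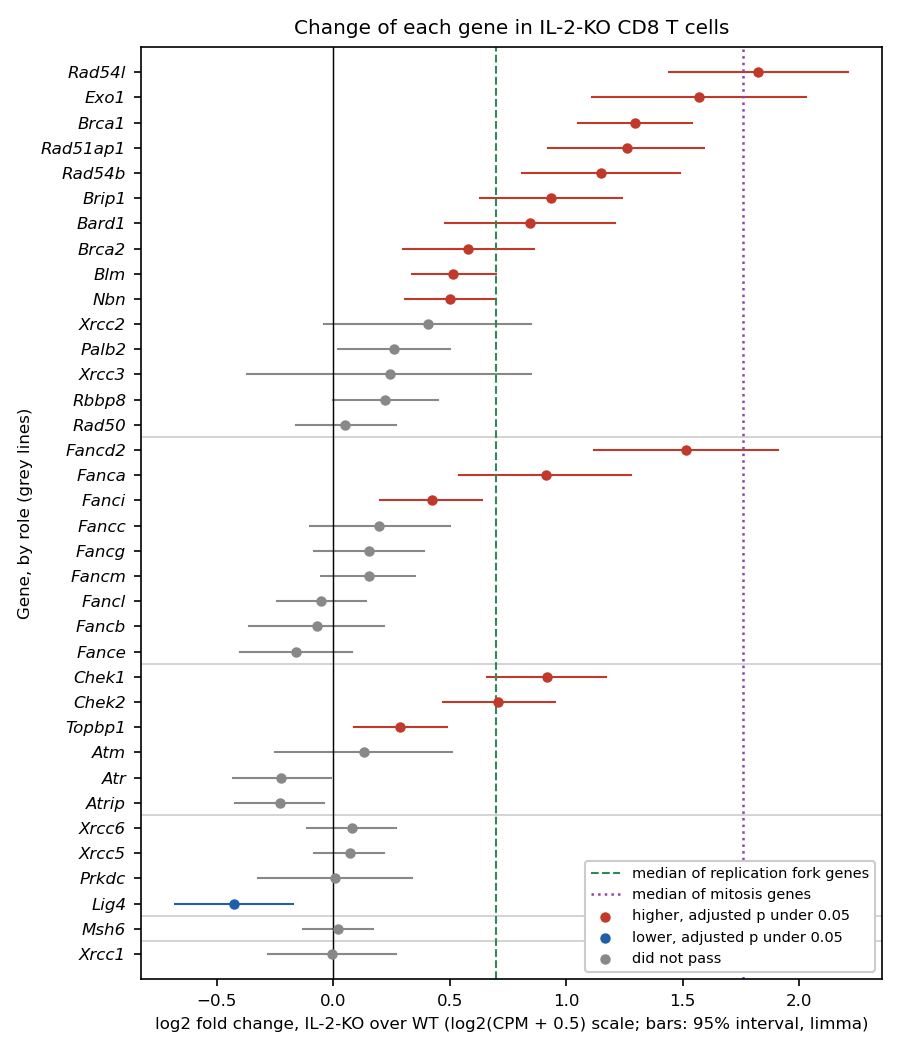
Log2 difference between IL-2-KO and WT for each of the 36 genes by role, on the log2(CPM + 0.5) scale; points are limma estimates from 4 libraries a group and bars their 95% confidence intervals, coloured by the adjusted p. Recombination genes reach 1.82 (Rad54l), and end joining and mismatch genes lie between -0.43 (Lig4) and 0.08 (Xrcc6).

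Of the 15 recombination genes 10 rose and 5 did not pass. Brca1, the tumour suppressor that with its partner Bard1 forms a ubiquitin ligase that acts at the break, stood at 12.4, 10.7, 10.6 and 11.9 CPM in WT and at 25.6, 32.5, 27.8 and 29.2 CPM in IL-2-KO. Every IL-2-KO library was above every WT library. The mean went from 11.4 ± 0.915 to 28.8 ± 2.91 CPM (SD, n = 4 each), a log2 difference of 1.29 with a 95% interval of 1.05 to 1.54 (limma, adjusted p = 8.8e-05). Rad54l, a motor protein that helps a broken end invade the matching strand, had the largest difference of the 36. It stood at 6.01, 3.96, 4.32 and 3.497 CPM in WT and at 13.8, 18.6, 16.5 and 18.4 CPM in IL-2-KO, a 3.54-fold difference (log2 1.82, interval 1.44 to 2.21, limma adjusted p = 0.00012). The 2 groups were far apart, with the lowest IL-2-KO library more than 7 CPM above the highest WT library. Rad54l shares 15.4% of its exon bases with Lrrc41 on the opposite strand, which itself was higher by 0.30 (limma, adjusted p = 0.046). No source used here says whether the counting used strand.

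Rad51ap1, an accessory protein of strand exchange, was at 7.60, 5.14, 5.95 and 6.47 CPM in WT and at 13.1, 15.97, 18.1 and 15.7 CPM in IL-2-KO (log2 difference 1.26, standard error 0.15, limma adjusted p = 0.00038). Exo1, an exonuclease that trims broken ends to single strands and also acts in mismatch repair, was at 5.36, 2.65, 5.05 and 4.00 CPM in WT and at 10.9, 15.4, 13.9 and 13.3 CPM in IL-2-KO (log2 difference 1.57, standard error 0.21, limma adjusted p = 0.00062). For both genes the groups did not overlap, and WT replicate 2 was the lowest library of all 8.

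The other 6 recombination genes that rose did so by smaller amounts, and in all 6 the groups did not overlap. Rad54b, a relative of Rad54l, went from 6.98 ± 0.692 to 16.2 ± 2.89 CPM (log2 difference 1.15), but 35.8% of its exon bases are shared with Fsbp on the same strand, so its reads cannot be assigned with certainty. Brip1, a helicase that binds BRCA1, went from 14.5 ± 2.05 to 28.1 ± 3.8 CPM (0.94), and Bard1 from 13.2 ± 1.203 to 24.5 ± 6.05 CPM (0.85). Brca2, a mediator of strand exchange, went from 17.04 ± 1.60 to 25.8 ± 3.504 CPM (0.58). Blm, the Bloom syndrome helicase that dissolves joined DNA molecules, went from 36.9 ± 1.55 to 53.1 ± 3.86 CPM (0.52). Nbn, a subunit of the complex that first binds a break, went from 31.3 ± 1.75 to 44.5 ± 3.07 CPM (0.50). Their limma adjusted p ranged from 0.00063 for Rad54b to 0.00996 for Brca2.

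The remaining 5 recombination genes did not pass. Palb2, the link between BRCA1 and BRCA2, averaged 18.8 ± 1.91 and 22.7 ± 1.70 CPM with overlapping groups (log2 difference 0.26, limma adjusted p = 0.12). Rbbp8, which starts end trimming together with the complex of NBN and RAD50, averaged 97.2 ± 9.18 and 114 ± 13.0 CPM (0.22, interval -0.00 to 0.45). Without IL-2-KO replicate 1 Rbbp8 passed, at 0.31 (limma, adjusted p = 0.041). The strand exchange cofactors Xrcc2 (5.40 ± 1.13 and 7.32 ± 1.53 CPM) and Xrcc3 (4.54 ± 1.69 and 5.15 ± 0.624 CPM) had differences of 0.41 and 0.24, with intervals of -0.04 to 0.85 and -0.37 to 0.85. Rad50, which forms a complex with NBN, averaged 60.5 ± 4.84 and 62.9 ± 6.66 CPM (0.05, interval -0.16 to 0.27). For Rad50 a change of the size seen in Nbn, 0.50, is outside that interval, while for Xrcc2 and Xrcc3 it is not. Without WT replicate 2, its lowest library, the estimate for Xrcc3 was -0.06.

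**Figure D2:**
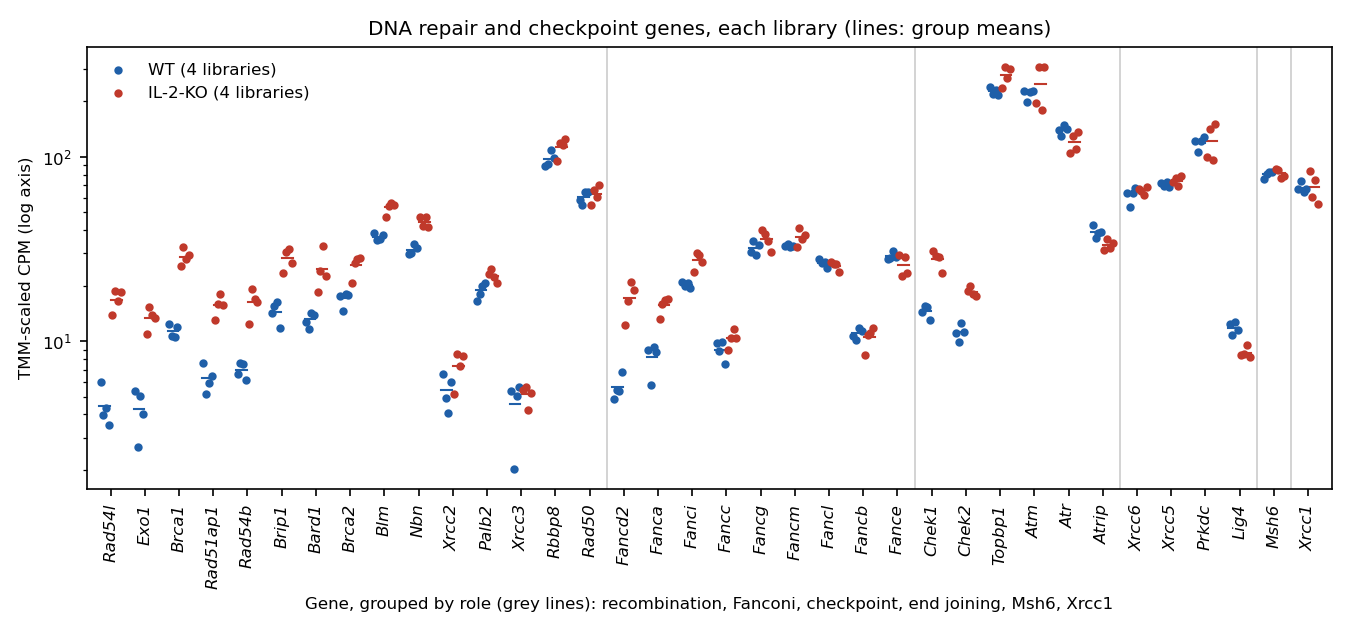
CPM (log axis) of the 36 genes, by role, in the 4 WT and 4 IL-2-KO libraries; each point is a library and short lines are group means. Brca1, Rad54l and Fancd2 separate the groups, Xrcc5 and Msh6 overlap between them, and the IL-2-KO libraries of Atm lie on both sides of WT.

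Of the 9 Fanconi genes, 3 rose, namely the pathway's 2 central substrates and 1 subunit of the core complex that modifies them. Fancd2, which with FANCI forms the clamp that is ubiquitinated at a crosslink, stood at 4.83, 5.46, 5.33 and 6.83 CPM in WT and at 12.2, 16.6, 20.9 and 18.8 CPM in IL-2-KO (log2 difference 1.51, interval 1.12 to 1.91, limma adjusted p = 0.00036). Its partner Fanci stood at 20.9, 20.03, 20.8 and 19.4 CPM in WT and at 23.8, 30.1, 29.3 and 26.8 CPM in IL-2-KO (0.42, limma adjusted p = 0.015). Groups did not overlap for either gene, and IL-2-KO replicate 1 was the lowest of its group for both. The call of Fanci was lost without WT replicate 4 (limma, adjusted p = 0.053), and 15.95% of its exon bases are shared with Polg on the opposite strand, which did not pass (-0.08). Fanca, a core complex subunit, stood at 8.98, 5.75, 9.32 and 8.76 CPM in WT and at 13.1, 15.9, 16.7 and 17.01 CPM in IL-2-KO (0.91, limma adjusted p = 0.0041). Its groups did not overlap either, and it shares 10.5% of its exon bases with Zfp276 on the opposite strand (-0.26, not passed).

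The other 6 Fanconi genes did not pass. Fancm, the motor protein that brings the core complex to DNA, stood at 32.8, 33.5, 32.4 and 32.99 CPM in WT and at 32.4, 41.2, 35.6 and 37.9 CPM in IL-2-KO (log2 difference 0.15, limma adjusted p = 0.27). The core subunits Fancb, Fancc, Fance, Fancg and the ubiquitin ligase Fancl had differences of -0.07, 0.20, -0.16, 0.15 and -0.05. The upper bounds of their intervals were 0.22, 0.50, 0.08, 0.39 and 0.14, all below the estimate for Fanca. Fancc shares 16.4% of its exon bases with an antisense gene and Fancl 13.7% with Vrk2, both on the opposite strand.

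Among checkpoint genes the effector kinases rose and the sensor kinases did not pass. Chek1, the kinase that slows origin firing and entry to mitosis when forks stall, stood at 14.4, 15.5, 15.3 and 13.0 CPM in WT and at 30.9, 29.1, 28.5 and 23.4 CPM in IL-2-KO (log2 difference 0.92, interval 0.66 to 1.17, limma adjusted p = 0.00048). Chek2, the kinase downstream of ATM, stood at 11.1, 9.90, 12.6 and 11.2 CPM in WT and at 18.7, 19.9, 18.0 and 17.6 CPM in IL-2-KO (0.71, interval 0.47 to 0.95, limma adjusted p = 0.0016). For both kinases every IL-2-KO library was above every WT library.

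Topbp1, the activator of ATR, was just inside the threshold. It stood at 239, 218, 231 and 217 CPM in WT and at 237, 307, 266 and 300 CPM in IL-2-KO (log2 difference 0.29, limma adjusted p = 0.048). Its groups overlapped through IL-2-KO replicate 1, and the call was lost when any 1 library except IL-2-KO replicate 1 was left out, with adjusted p of 0.065 to 0.13. Atrip, the partner that brings ATR to single-stranded DNA, stood at 42.6, 36.2, 38.7 and 38.9 CPM in WT and at 31.0, 35.9, 32.2 and 34.2 CPM in IL-2-KO (-0.23, limma adjusted p = 0.091). All 4 IL-2-KO libraries were below all 4 WT libraries by a narrow margin, and 16.04% of its exon bases are shared with Trex1 on the same strand. Atr averaged 140 ± 8.19 CPM in WT and 121 ± 15.2 CPM in IL-2-KO (-0.22, limma adjusted p = 0.13).

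Atm, the kinase that answers double-strand breaks, was singled out after its values were seen. It stood at 228, 198, 224 and 227 CPM in WT and at 197, 306, 179 and 306 CPM in IL-2-KO (log2 difference 0.13, interval -0.25 to 0.51, limma adjusted p = 0.63). IL-2-KO replicates 2 and 4 were above all WT libraries, and replicates 1 and 3 were below them. Prkdc, another long gene, had the same order within IL-2-KO. The difference of each library from its group mean was set against exon length over the 36 genes, and Spearman's rho was -0.49, 0.36, -0.04 and 0.48 in IL-2-KO replicates 1 to 4 and between -0.14 and 0.17 in WT. Over 11444 genes it was -0.37, 0.35, -0.29 and 0.37 in IL-2-KO and -0.05, -0.21, 0.32 and 0.12 in WT replicates 1 to 4. Over all genes WT replicate 3 thus had a trend of similar size. These are descriptions across genes of 1 library, which are not independent. With trends of GC content and length removed from each library, 17 of the 36 genes were higher and 0 lower.

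None of the 4 end joining genes rose, and Lig4 fell. Xrcc5 (Ku80), which with Ku70 forms the ring that grips a broken end, stood at 72.2, 69.1, 72.7 and 68.2 CPM in WT and at 72.7, 76.6, 69.2 and 78.3 CPM in IL-2-KO. Its log2 difference was 0.07, with an interval of -0.08 to 0.22 (limma, adjusted p = 0.51). Xrcc6 (Ku70) stood at 64.0, 53.4, 64.0 and 67.8 CPM in WT and at 66.9, 65.6, 61.7 and 68.8 CPM in IL-2-KO (0.08, interval -0.11 to 0.27). For both Ku genes the groups overlapped, and the intervals leave out a rise as large as that of any of the 10 recombination genes that passed.

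Prkdc, the catalytic subunit of the DNA-dependent protein kinase that Ku recruits, stood at 121, 106, 121 and 128 CPM in WT and at 99.2, 142, 96.0 and 151 CPM in IL-2-KO (0.01, interval -0.32 to 0.34). The IL-2-KO libraries lay on both sides of WT, as for Atm. Lig4, the ligase that closes the joined ends, stood at 12.4, 10.8, 12.7 and 11.5 CPM in WT and at 8.37, 8.50, 9.57 and 8.22 CPM in IL-2-KO. Its groups did not overlap, and it fell by 0.43 on the log2 scale (interval -0.68 to -0.17, limma adjusted p = 0.027). The call was lost without any 1 of WT replicates 1, 3 and 4 or IL-2-KO replicates 1, 2 and 4 (adjusted p 0.053 to 0.095), and with GC and length trends removed, while the estimate stayed between -0.44 and -0.39 in those 6 fits.

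Msh6, a subunit of the complex that recognises single mismatches, stood at 75.8, 80.3, 82.2 and 82.8 CPM in WT and at 85.9, 84.8, 77.0 and 78.6 CPM in IL-2-KO. The groups overlapped, with IL-2-KO replicates 1 and 2 above all WT libraries and WT replicate 1 the lowest of all 8, and the difference was 0.02 (interval -0.13 to 0.17, limma adjusted p = 0.85). Xrcc1, the scaffold of single-strand break repair, stood at 67.1, 73.7, 64.5 and 66.7 CPM in WT and at 83.3, 60.5, 75.1 and 55.3 CPM in IL-2-KO (-0.01, interval -0.28 to 0.27). Its IL-2-KO replicates 1 and 3 were above all WT libraries and replicates 2 and 4 below them, the opposite order to Atm and Prkdc.

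Within each library, recombination and Fanconi genes could be set against end joining and mismatch genes. The scaling of a library cancels in this difference, except through the 0.5 added to each value before the log. Relative to the WT mean, the mean log2 level of the 24 recombination and Fanconi genes was 0.06, -0.13, 0.05 and 0.02 in WT and 0.44, 0.69, 0.69 and 0.64 in IL-2-KO. For the 5 end joining and mismatch genes it was 0.02, -0.11, 0.05 and 0.04 in WT and -0.10, 0.02, -0.14 and 0.02 in IL-2-KO. The difference between these means was 0.53, 0.68, 0.83 and 0.61 in the IL-2-KO libraries (mean 0.66, SD 0.12) and -0.02 to 0.04 in WT. It was higher in all 4 IL-2-KO libraries than in any WT library, both among the libraries of over 2 M cells (replicates 1 and 2) and among those of fewer (replicates 3 and 4). It was lowest in replicate 1 and highest in replicate 3, the library with the high Cd4 and myeloid values, and stood at 0.53 to 0.68 in the other 3. The mean of the 20 mitosis genes counted below was likewise lowest in replicate 1 (1.21) and highest in replicate 3 (2.08). The part of any of these in the difference was not tested. No p is given for the within-library difference because the genes were chosen with earlier results known. The 6 checkpoint genes stood between the sets, at 0.16, 0.41, 0.16 and 0.33.

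**Figure D3:**
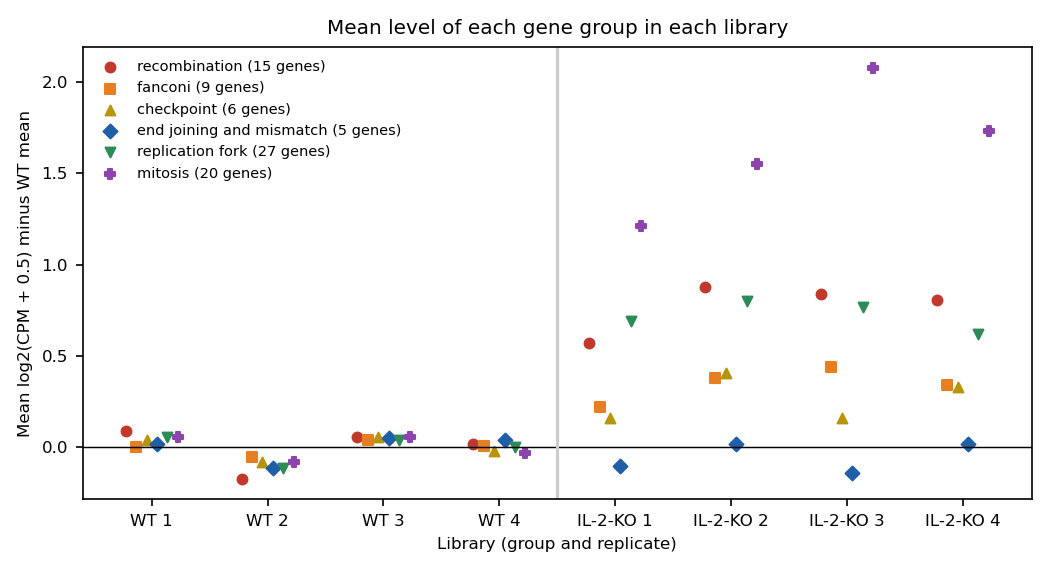
Mean log2 level of each gene set in each library relative to the WT mean; each point is a library, 4 WT and 4 IL-2-KO. Recombination genes lie at 0.57 to 0.88 and Fanconi genes at 0.22 to 0.44 in IL-2-KO, end joining and mismatch genes at -0.14 to 0.02, replication fork genes at 0.62 to 0.80 and mitosis genes at 1.21 to 2.08.

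Partner genes were also set against each other. For 18 pairs of partners or relatives, chosen after their values were seen, the difference of log2 levels within each library was compared between groups by an exact two-sided permutation test over the 70 assignments of libraries. In 10 pairs the groups did not overlap, which gives 0.0286, the smallest p that 4 against 4 allows in this exact permutation test, and 0.0514 after adjustment over the 18 pairs, so 0 of 18 passed. Because the pairs were picked with their values known, this count and these p only describe the chosen pairs. No share over other pairs of genes was counted beside it. Among those 10, the log2 ratio of Fancd2 to Fanci, its clamp partner, was higher by 1.09 in IL-2-KO, and that of Nbn to Rad50 by 0.45. The ratio of Brca1 was higher by 1.03 against Palb2 and by 1.07 against Rbbp8, and that of Fanca to Fancg by 0.76. For the kinases it was higher by 1.14 for Chek1 against Atr and by 0.58 for Chek2 against Atm, and for Topbp1 against Atr by 0.51. It was higher by 0.67 for Rad54l against Rad54b, and it differed by -1.05 for Blm against Exo1.

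In the other 8 pairs the groups overlapped. The 2 Ku genes differed in their change by -0.01 (exact permutation p = 0.886), Atr and Atrip by 0.01 (exact permutation p = 0.971), and Fancb and Fancl by -0.02 (exact permutation p = 0.914). Brca1 and Bard1, which are stable as a pair of proteins, differed by 0.45 with overlapping groups (exact permutation p = 0.114).

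Levels per length set the genes in another order. Length was that of all annotated exons of a gene combined, whichever transcripts were expressed. The SD is between libraries and does not cover error in this length. In WT, CPM per kilobase of exon ran from 0.507 ± 0.145 for Exo1 to 27.6 ± 0.873 for Xrcc5 (SD, n = 4). Below Xrcc5 came Atm at 21.2 ± 1.38 and Topbp1 at 20.2 ± 0.930, which did not differ beyond their spread, then Msh6 at 18.5 ± 0.726, Xrcc6 at 13.9 ± 1.38, Nbn at 12.4 ± 0.693, Xrcc1 at 11.7 ± 0.679 and Rad50 at 11.3 ± 0.901. Nbn lay within about 1 SD of Xrcc1, and Xrcc1 within 1 SD of Rad50. At the bottom were Exo1, Rad54l (0.577 ± 0.142), Fancd2 (0.707 ± 0.108) and Fanca (0.936 ± 0.189). Of these, Exo1 lay within 1 SD of Rad54l, and Rad54l within 1 SD of Fancd2. Of the 10 genes lowest per length in WT 8 rose, and of the 10 highest 2 rose, Nbn and Topbp1. The WT level enters both this order and the difference, so the 2 are not independent. In IL-2-KO Rad54l stood at 2.18 ± 0.290 and Fancd2 at 2.16 ± 0.470 CPM per kilobase, still below Rad50 at 11.7 ± 1.24.

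The choice by name did not use position. A protein-coding gene starting within 1000 bases on the opposite strand and running the other way was found for 13 of the 36 (36.1%), against 17.05% of the 11633 table genes with a position (GENCODE M21, GRCm38). Such neighbours share the stretch between their starts, and 11 of them were tested. Of the 5 members that rose and had a tested neighbour, 1 had a neighbour that rose too and 4 had one that did not pass.

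Brca1 (chr11:101488764-101551955, minus strand) starts 194 bases from Nbr1, an autophagy receptor gene, which averaged 154 ± 16.95 CPM in WT and 135 ± 7.52 CPM in IL-2-KO (log2 difference -0.18, limma adjusted p = 0.17). Rad54l (chr4:116094264-116123690, minus strand) starts 150 bases from Pomgnt1, a glycosyltransferase gene, at 29.2 ± 2.63 and 27.2 ± 1.97 CPM (-0.10). Fancd2 (chr6:113531682-113597017, plus strand) starts 30 bases from Emc3, which encodes a membrane protein insertion factor, at 60.6 ± 7.20 and 60.5 ± 2.98 CPM (0.00). Rad51ap1 starts 375 bases from D6Wsu163e, at 21.7 ± 2.10 and 21.3 ± 2.58 CPM (-0.03). In these 4 pairs the member rose and its neighbour, 1 promoter region away, did not pass. In all 4 pairs the member was the lower gene in both groups, and the gap narrowed in IL-2-KO: the log2 ratio of member to neighbour went from -3.69 to -2.21 for Brca1, from -2.60 to -0.68 for Rad54l, from -3.32 to -1.82 for Fancd2 and from -1.71 to -0.43 for Rad51ap1. The groups did not overlap in this ratio for these 4 pairs, nor for Xrcc3 and Zfyve21 (-0.53 to 0.15, neither gene passing) and Prkdc and Mcm4 (0.09 to -0.65, the ratio falling). All 6 had the smallest possible exact permutation p, 0.0286, which is 0.0524 adjusted over the 11 pairs, so 0 of 11 passed. The first 4 pairs were grouped by the calls of member and neighbour, so their higher ratio follows largely from that grouping. No share over other pairs of genes was counted beside these.

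Chek2 (chr5:110839979-110874145, plus strand) was the exception. It starts 202 bases from Hscb, an iron-sulphur cluster cochaperone gene, which rose with it, from 24.2 ± 1.81 to 35.6 ± 6.73 CPM (log2 difference 0.53, limma adjusted p = 0.020). The reverse was seen for Prkdc, which did not pass while its neighbour Mcm4, a subunit of the replicative helicase 466 bases away, rose from 112 ± 10.1 to 188 ± 17.1 CPM (0.74, limma adjusted p = 0.00044). The neighbours of the 5 others did not pass: Dctn5 (-0.01) beside Palb2, Zfyve21 (-0.44) beside Xrcc3, Mospd2 (0.12) beside Fancb, Npat (0.11) beside Atm and Abhd13 (-0.18) beside Lig4.

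**Figure D4:**
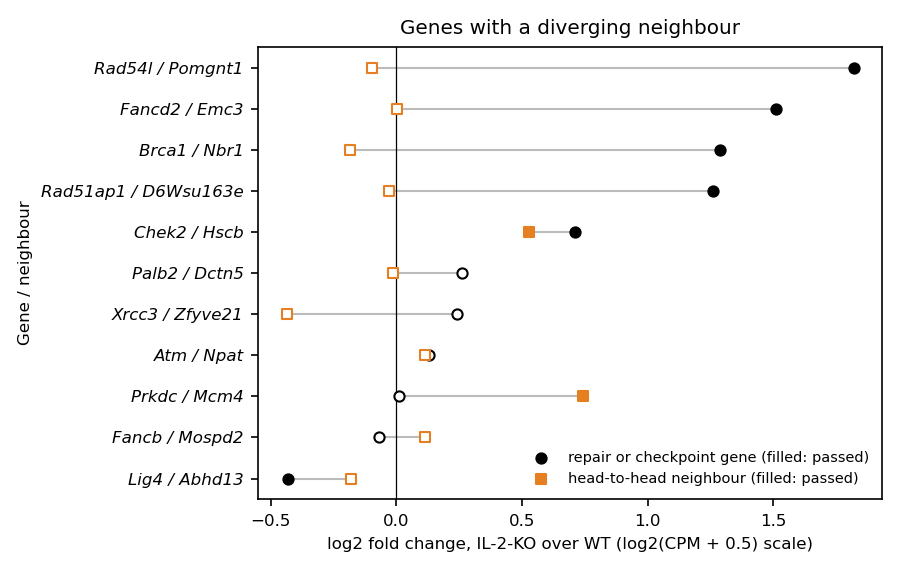
Log2 difference, IL-2-KO minus WT, of each member (circles) and of the gene that starts beside it (squares) on the opposite strand, for the 11 pairs tested, as limma estimates from 4 libraries a group, filled where the test was passed. Brca1, Rad54l, Fancd2 and Rad51ap1 lie above 1.2 while their neighbours lie between -0.18 and 0.00.

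The sequences between the starts show what such pairs share, where they could be had. They were available for the pairs of Brca1, Palb2, Rad54l, Fancb and Chek2. Stretches of the other tested pairs, among them those of Fancd2 and Rad51ap1, were too short, reached beyond the RefSeq promoter window or had no window. Each printed sequence runs from beside the neighbour's start toward the member's start, whatever the order of names in its label. They are from RefSeq (GRCm38.p6), on the member's strand, in lower case, with capitals for CCAAT boxes (CCAAT, or ATTGG on the other strand, the element bound by NF-Y) and for E2F-type sites (TTTCCCGC, TTTGGCGC, TTTCGCGC or TTTGCCGC on either strand, the element of many S phase genes).
Brca1 to Nbr1, chr11:101551956-101552148, minus strand: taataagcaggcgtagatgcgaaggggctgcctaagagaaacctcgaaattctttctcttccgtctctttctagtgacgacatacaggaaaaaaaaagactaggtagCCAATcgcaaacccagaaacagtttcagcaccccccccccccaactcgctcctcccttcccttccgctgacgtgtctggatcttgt
Rad54l to Pomgnt1, chr4:116123691-116123839, minus strand: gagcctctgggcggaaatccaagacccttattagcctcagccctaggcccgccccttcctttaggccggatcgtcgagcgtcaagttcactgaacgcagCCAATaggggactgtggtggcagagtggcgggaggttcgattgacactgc
Hscb to Chek2, chr5:110839778-110839978, plus strand: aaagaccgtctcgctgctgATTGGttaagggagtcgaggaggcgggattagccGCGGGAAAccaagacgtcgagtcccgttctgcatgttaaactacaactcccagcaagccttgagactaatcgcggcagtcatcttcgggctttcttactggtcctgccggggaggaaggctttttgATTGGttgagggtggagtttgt
The stretch of Chek2 and Hscb, the pair that rose together, holds 1 E2F-type match and 2 CCAAT boxes. Those of Brca1 and of Rad54l, where 1 gene of the pair rose, hold 1 CCAAT box each and no E2F-type match. So does that of Fancb and Mospd2, where neither gene passed, and that of Palb2 and Dctn5, where neither passed, holds neither motif. A match is a run of letters and was not shown to be bound.

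E2F-type matches were also counted in the windows from 250 bases before to 50 bases after the RefSeq start, which could be had for 28 of the 36 genes (30 windows). They were found in 7 member windows (23.3%), against 4.10% of the 11694 windows of genes tested and 2.26% of all 32851 windows. The members with a match were Bard1, Brca2, Chek2 and Topbp1, which rose, and Fancg, Xrcc6 and Msh6, which did not pass. By windows these are 4 of 13 for members that rose (30.8%) and 3 of 17 for the others (17.6%), so the letters were found on both sides. Bard1 and Brca2 are shown as examples of members that rose, with the match in capitals, 26 bases on each side and on the gene's strand. The matches of Topbp1, Fancg and Xrcc6 lie in or next to the GENCODE gene and that of Msh6 lies after the RefSeq start, so those are not shown, and the choice says nothing about which members hold a match.
Bard1, chr1:71103148-71103207, minus strand: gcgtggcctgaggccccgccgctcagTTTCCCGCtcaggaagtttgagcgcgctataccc
Brca2, chr5:150522427-150522486, plus strand: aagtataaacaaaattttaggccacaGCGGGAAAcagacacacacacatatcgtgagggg
Bard1 carries the site in its forward letters, 209 bases before the RefSeq start, and Brca2 carries the same letters on the opposite strand, 168 bases before its start. CCAAT boxes were in 20 of 30 member windows (66.7%) against 38.1% of the windows of genes tested, with 61.5% for members that rose and 70.6% for the others. GC boxes (GGGCGG, either strand) were in 63.3% of member windows and 62.0% of those tested. The cell cycle element TTTGAA or TTCGAA was in 6.67% and 14.1%, and the NRF1 element GCGCANGCGC in 16.7% and 10.4%. Matches of different motifs may share bases.

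Other genes of the same and related pathways were counted from lists written from textbook knowledge. Of 137 further repair and checkpoint genes tested 24 were higher (17.5%) and 7 lower (5.11%), and their median difference was 0.00. Of all genes tested 11.1% were higher and 8.03% lower. In recombination 8 of 37 rose (21.6%) and 2 fell (5.4%). These included Dna2, a nuclease and helicase for long end trimming, from 6.66 ± 0.857 to 21.6 ± 3.18 CPM (3.08-fold). Fignl1, an ATPase of the recombination pathway, went from 10.2 ± 1.12 to 27.6 ± 3.00 CPM (2.63-fold). The limma adjusted p of each was 9.3e-05. In the Fanconi pathway 5 of 14 rose (35.7%), among them Rfwd3, a ubiquitin ligase at crosslinks (log2 difference 0.46), Cenps, a histone-fold partner of FANCM (0.81), and Usp1, which removes ubiquitin from FANCD2 (0.34).

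Among further checkpoint genes 5 of 23 rose (21.7%) and 2 fell (8.70%), against 11.1% and 8.03% of all genes tested. Clspn, the adaptor through which ATR activates CHK1, went from 16.4 ± 3.49 to 50.03 ± 6.93 CPM (3.02-fold, limma adjusted p = 0.00016). Rpa2, a subunit of the protein that coats single-stranded DNA, went from 64.7 ± 3.48 to 99.9 ± 3.23 CPM, and Wee1, the kinase that restrains CDK1, from 10.99 ± 0.965 to 19.0 ± 0.999 CPM. Mdc1, the scaffold that binds marked chromatin at breaks, was lower (-0.50), as was the kinase Tlk2 (-0.28).

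Of 10 further end joining genes 1 rose, Polq, the polymerase of the alternative end joining route that uses short homologies, from 16.5 ± 2.25 to 28.0 ± 5.19 CPM (log2 difference 0.74, limma adjusted p = 0.0087). Of 6 further mismatch genes 0 passed by limma and 1 had an unadjusted p under 0.05, and the smallest adjusted p was that of Mlh3, at 27.8 ± 3.79 and 21.5 ± 3.10 CPM (-0.37, limma adjusted p = 0.084). The share of higher genes in these 2 lists was at or below the background of 11.1%.

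In base excision repair 3 of 18 rose: Lig1, the ligase of replicating DNA, from 37.0 ± 7.45 to 94.7 ± 8.20 CPM, Fen1, the flap endonuclease of lagging-strand synthesis, from 28.9 ± 2.75 to 52.9 ± 5.45 CPM, and the glycosylase Neil3 from 16.4 ± 4.05 to 49.7 ± 11.4 CPM. Lig1 and Fen1 also act on Okazaki fragments at the fork. In nucleotide excision repair 1 of 17 rose (Cetn2, 0.33) and 3 fell. Among those lower were Ercc6 and Uvssa, factors of the branch coupled to transcription, at 130 ± 5.76 and 99.2 ± 6.46 CPM (-0.38, limma adjusted p = 0.0045) and at 75.3 ± 7.89 and 55.1 ± 5.38 CPM (-0.45, limma adjusted p = 0.013). In translesion synthesis 1 of 13 rose, the polymerase delta subunit Pold3 (0.33). The shares higher were 16.7% in base excision, 5.88% in nucleotide excision and 7.69% in translesion synthesis, against 11.1% of all genes tested. The share lower in nucleotide excision was 17.6%, against 8.03% of all genes tested.

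Targets of the transcription factor p53, which damage signalling can activate, were also counted. Of 21 tested 2 were higher (9.52%) and 3 lower (14.3%), against 11.1% and 8.03% of all genes tested, with a median of -0.07. Sesn1, a stress-induced regulator of growth signalling, went from 169 ± 17.7 to 101 ± 8.82 CPM (log2 difference -0.74, limma adjusted p = 0.00061), and Ddit4, an inhibitor of mTORC1, from 198 ± 32.9 to 105 ± 29.5 CPM (-0.94). Ccng1, a cyclin induced by p53, was higher, from 125 ± 9.60 to 161 ± 16.1 CPM (0.36).

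Lists of proliferation genes give a scale for these values. Of 27 replication fork genes 23 rose, with a median of 0.70, and of 20 mitosis genes 19 rose, with a median of 1.76. Mcm3 and Mcm7, subunits of the replicative helicase, were higher by 0.82 and 0.66 and Mcm10, a factor that helps to activate it, by 1.61, and the mitotic genes Ccnb2, Mki67 and Tpx2 by 2.11, 1.93 and 1.87. Per library the replication fork genes stood at 0.69, 0.80, 0.77 and 0.62 in IL-2-KO replicates 1 to 4, and the 15 recombination genes at 0.57, 0.88, 0.84 and 0.81. The orders differed: IL-2-KO replicate 1 was lowest for recombination and replicate 4 was lowest for replication. The mitosis genes stood at 1.21, 1.55, 2.08 and 1.73. They were lowest in replicate 1, as recombination was, and highest in replicate 3, whereas recombination was highest in replicate 2. How far the repair genes moved beyond or with the share of cycling cells was not tested.

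**Figure D5:**
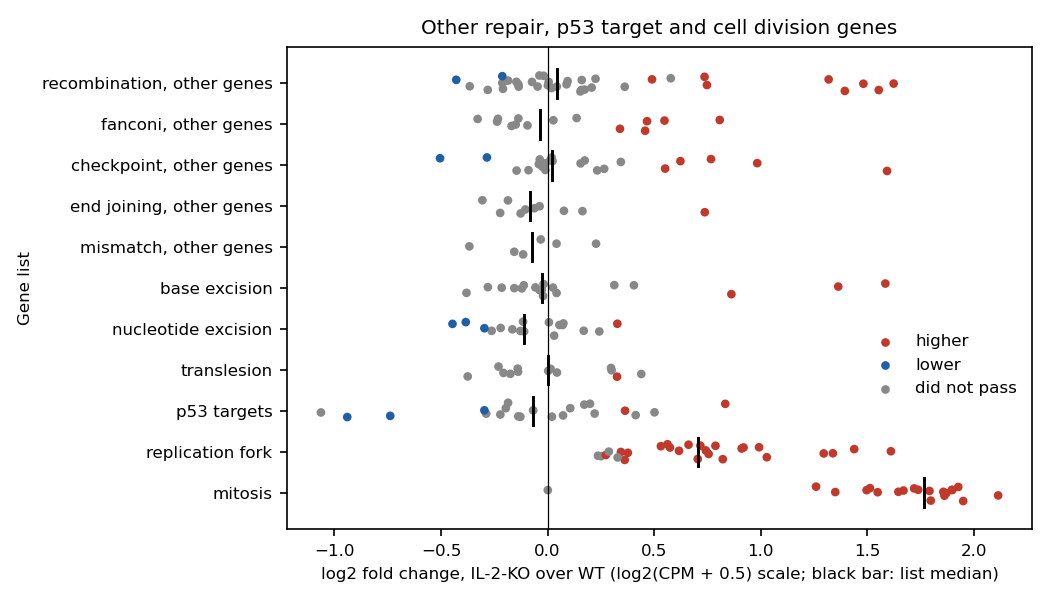
Log2 difference, IL-2-KO minus WT, of the other repair genes, p53 targets, replication fork genes and mitosis genes; each point is a gene, coloured by the limma call, and black bars are list medians. Replication fork (0.70) and mitosis (1.76) medians stand to the right, and medians of the repair and p53 lists lie between -0.11 and 0.04.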

How the data were processed

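CD8 T cell RNA of 4 WT and 4 IL-2-KO samples was sequenced from a stranded total RNA kit, per the labels' protocols. The deposited table holds a signal value per gene and library that the authors named TMM counts CPM, on a linear scale, that is, counts scaled to 1e6 per library after TMM adjustment (column sums 988292 to 1022953, with no unused columns). The submitters' processing notes name featureCounts, limma 3.34.9, R 3.4.3, GRCm38 and mm10. The aligner and the strand setting are not given in the sources used here. Values under 20 CPM moved in steps from which depth was recovered (11.9 to 18.4 M counts). Between 54.6% and 65.0% of them were whole reads (within 0.001 read), so no count test was run. The unit foreseen was CPM, and the planned log-scale test was kept.

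Entrez identifiers gave symbols for 11651 genes (72 had none). Exon lengths and positions were from GENCODE M21, promoter windows from RefSeq GRCm38.p6. Genes with at least 1 in at least 4 libraries (11530) were tested on log2(value + 0.5) with limma 3.58.1 in R 4.3.3 (empirical Bayes with a trend, Benjamini-Hochberg, threshold 0.05), after the steps were tested on simulated data. No libraries were duplicates: the chi-square per gene within groups was 4.97 or more. Tools besides were Python 3.11.15 with scipy 1.17.1, pandas 2.3.3, numpy 2.4.6 and matplotlib 3.10.9.

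The members and the lists were chosen with earlier results of these data known. Values in every library are given for the 4 genes of smallest adjusted p per role and for all end joining and mismatch genes. Of each wider list up to 3 genes that passed are named, and some items are not reported here. Alternatives were other pseudocounts, filters, scalings, weights, a covariate, a replicate block and left-out libraries. Removal of GC and length trends and the comparison of pairs were chosen after seeing the data.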

Additional observations from a re-analysis of the deposited data

Results flagged for a closer look

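The 36 genes and the within-library role difference, each in both genotypes, gave 74 groups of 4 libraries. In 4 of them a single library stood apart by Dixon's criterion for 4 samples (the share of the group's range taken by the gap to the nearest library), which chance meets in about 5% of groups. In all 4 it was WT replicate 2, and it was the lowest. Brca2 stood there at 14.7 CPM against 17.5 to 18.1 CPM in the other WT libraries, and Fanca at 5.75 CPM against 8.76 to 9.32 CPM. Atm stood at 198 CPM against 224 to 228 CPM, and Xrcc3 at 2.02 CPM against 5.07 to 5.67 CPM. WT replicate 2 also had the lowest depth (11.9 M counts) and, among WT libraries, the high Cd4 value, and the part of either in these 4 values was not tested.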

How the results depend on the processing

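Of the 17 genes that passed, 5 (Brca1, Rad54l, Exo1, Fancd2 and Chek1) did so under all 22 alternatives, and 0 reversed. Of the 19 others, 5 passed under at least 1. Leaving out each library in turn gave 14 to 17 higher members and 0 to 1 lower, 12 to 14 higher recombination and Fanconi genes, 2 to 3 higher checkpoint genes, 0 to 1 lower end joining or mismatch genes, and 21 to 25 higher and 3 to 8 lower further repair genes. The mean difference between recombination and Fanconi genes and end joining and mismatch genes ranged from 0.61 to 0.71. Without the libraries of under 2 M cells, which leaves 2 a group, 5 members were higher and 0 lower, with 4 higher in recombination and Fanconi, 1 in checkpoint and 0 lower in end joining and mismatch, and 7 further repair genes were higher and 0 lower. With array weights 20 members were higher and 2 lower, and 34 further repair genes were higher and 23 lower. With GC and length trends removed, a choice made after seeing the data, 17 members were higher and 0 lower (0 in end joining and mismatch).

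Over all genes 2240 were higher and 2119 lower with array weights, against 1285 and 926. Quantile normalization gave 48.9% of calls as higher, against 58.1%. Leaving out libraries also leaves fewer samples, and the cause of the shifts with array weights and with trends removed was not tested. With the replicate number as a block, 14 members were higher and 0 lower (0 in end joining and mismatch), and 21 further repair genes were higher and 1 lower. The within-library difference was 0.66 with the block as without, and over all genes 911 were higher and 486 lower. The numbers do not pair the samples: deviations of same-numbered libraries correlated at 0.084, -0.53, -0.40 and 0.39. The largest correlation, 0.655, was that of WT replicate 2 with IL-2-KO replicate 3, the 2 libraries with high Cd4. Without both of them 15 members were higher and 1 lower. At 1 CPM a value rests on 11.9 to 18.6 counts, so relative counting error is largest for the genes of lowest level.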
